A study of Mus musculus with 6 samples.

Results

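The macrophage genes described here are 10 markers measured in RNA of mouse hearts. Adgre1, Cd68, Csf1r, Lyz2 and Cd14 mark macrophages in general, Ccr2 marks those recruited from blood monocytes, and Lyve1, Mrc1, Timd4 and Cd163 mark resident ones. They were taken by gene name from a table of 54532 genes, and each of the 10 had 1 entry. The study examined hearts that lose Mrps5, which encodes a small-subunit protein of mitochondrial ribosomes. RNA of 3 control hearts (Ctrl) and 3 conditional knockout hearts (cKO) was sequenced as poly-A selected libraries, 1 per heart. Ctrl mice were Mrps5 fl/fl, meaning that both Mrps5 alleles are flanked by loxP sites, and cKO mice were Mrps5 fl/fl; MCM. MCM is MerCreMer, a Cre recombinase switched on by tamoxifen and driven here by the αMHC promoter, which is active in cardiomyocytes. Mice of both groups received tamoxifen at 45 mg/kg/day for 5 days from 8 weeks of age and were sampled 12 weeks later according to the labels, while the study's methods give an age of 12 weeks. Ctrl mice were littermates without Cre, so an effect of tamoxifen-activated Cre itself and the loss of Mrps5 cannot be told apart. Cre was directed to cardiomyocytes, not to macrophages.

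Macrophages are the most abundant immune cells of the healthy heart. Resident ones are seeded in part before birth, renew themselves locally with little input from blood, take up dying cells and spent mitochondria, and are recognised by receptors for debris, hyaluronan or haemoglobin such as TIM-4, LYVE1 and CD163. After injury, monocytes enter the tissue through the chemokine receptor CCR2, which follows CCL2 and related ligands, and become macrophages that carry more inflammatory genes. Both kinds depend on CSF1R, the receptor for CSF1 and IL-34.

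The libraries held 15989322 to 24875499 reads assigned to genes. The targeted gene went with its labels: Mrps5 was at 5.20 to 6.45 FPKM in Ctrl and 1.12 to 1.31 FPKM in cKO hearts (log2 fold change -1.65, limma adjusted p 0.000202). FPKM are fragments per kilobase of gene, scaled to library size. The deposited values had also been scaled between hearts, since the library size they imply was 0.913 to 0.980 times the recovered total in Ctrl and 1.06 times in each cKO heart. The labels give no sex, while the study describes its mice as male. In cKO replicate 2 the Y-linked genes Uty, Kdm5d, Ddx3y and Eif2s3y were all listed at 0 and Xist was at 10.7 FPKM, which goes against that description, while in the other 5 hearts these 4 genes averaged 7.61 to 8.79 FPKM and Xist was at 0.127 FPKM or less. Atrial muscle RNA also varied. Myl7, the atrial myosin light chain, ranged from 18.1 FPKM in Ctrl replicate 3 to 679 FPKM in Ctrl replicate 1, although the study's methods describe ventricular tissue. The part of sex and of atrial tissue in the values below was not tested beyond leaving out a heart.

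Csf1r was the 1 marker that passed the test, and it was lower in cKO hearts, at 61.8% of Ctrl. Cd163 and Timd4, both receptors of resident macrophages, were at 45.2% and 40.1% of Ctrl, further from Ctrl than Csf1r but with a wider spread, and did not pass (limma adjusted p 0.0576 and 0.0799). Adgre1, Cd14 and Mrc1 were within 10% of Ctrl, Lyve1 and Lyz2 at 84.1% and 83.1%, Cd68 at 122% and Ccr2 at 155%, and none of these passed. In whole-heart RNA, fewer macrophages and less RNA per macrophage cannot be told apart. Of the 9 markers that averaged 0.5 FPKM or more over all 6 hearts, 1 passed (limma on log2(FPKM + 1), adjusted p under 0.05), 0 were higher and 1 was lower. Among all 12944 genes tested, 33.3% passed, 16.3% as higher and 17% as lower, with a median log2 fold change of -0.02. At an unadjusted p under 0.05, 3 markers were lower (Csf1r, Cd163 and Timd4) and 0 were higher, and voom on the recovered reads called 2 lower (Csf1r and Cd163) and 0 higher. Csf1r and Cd163 were the 2 markers whose Ctrl and cKO hearts did not overlap, against 51.2% of all genes tested. Scaling each heart to its total reads moved the split of all calls to 3273 higher and 1381 lower and the median to 0.09. Scaling without the genes of mitochondrial DNA gave 2719 and 1609. Under both scalings 1 marker was lower and 0 were higher. The call count for the markers rested on few hearts, since 0 were lower without Ctrl replicate 3, 2 without Ctrl replicate 1 (Csf1r and Cd163), 2 without Ctrl replicate 2 (Csf1r and Timd4) and 1 without cKO replicate 2.

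**Figure D1:**
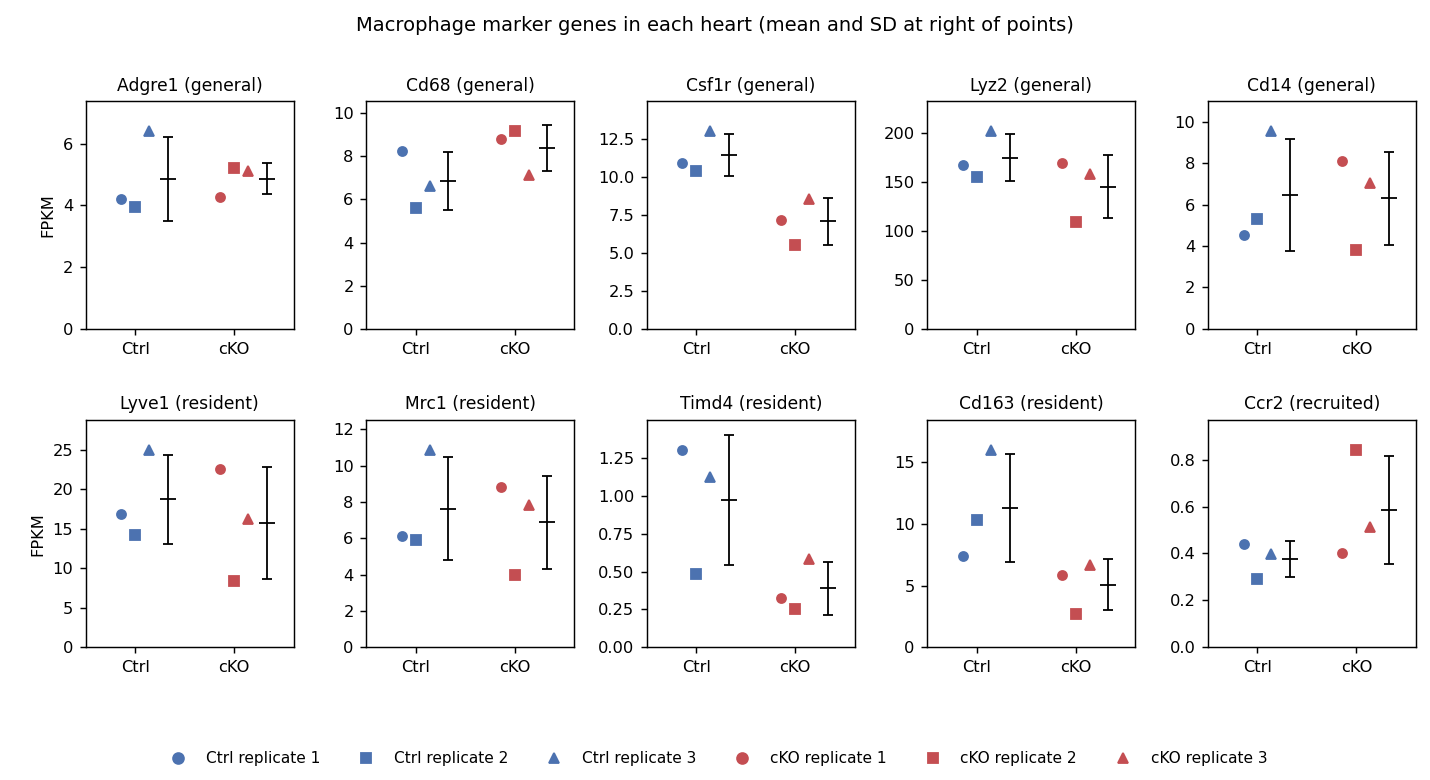
FPKM of the 10 macrophage markers in each of the 6 hearts (blue Ctrl, red cKO, symbol by replicate number), with the mean and SD of 3 hearts beside the points. Csf1r and Cd163 are the 2 panels in which every cKO heart lies under every Ctrl heart. The groups also do not overlap for 51.2% of single genes tested.

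The general markers are described first. Csf1r (ENSMUSG00000024621, chromosome 18, 61105572 to 61132149, plus strand) encodes the receptor whose signal keeps macrophages alive. The Ctrl hearts had 10.9, 10.4 and 12.99 FPKM, in the order of their replicate numbers, and the cKO hearts 7.12, 5.50 and 8.54 FPKM. Each cKO heart was below each Ctrl heart, and the highest of all was Ctrl replicate 3. The means were 11.4 ± 1.39 and 7.05 ± 1.52 FPKM (SD, n = 3 each), with a log2 fold change of -0.64 (SE 0.15, limma adjusted p 0.0196, 95% interval -0.999 to -0.27). The call held in 14 of 16 alternatives, with adjusted p from 0.00987 to 0.0661. It was lost without Ctrl replicate 3 (-0.55, adjusted p 0.0661) and when all genes were tested without a filter (0.0526). Without cKO replicate 2 it was -0.49 (adjusted p 0.0294). Csf1r overlaps the gene Hmgxb3 on the opposite strand over 871 bases, and whether reads were counted by strand is not given in the sources used here. Hmgxb3 was at 3.52 to 4.15 FPKM in Ctrl and 3.93 to 4.32 FPKM in cKO hearts (adjusted p 0.469).

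Lyz2 (chromosome 10, 117277331 to 117282321, minus strand), which encodes the lysozyme of macrophages and neutrophils, was the highest of the markers in every heart. It was at 168, 156 and 202 FPKM in Ctrl and 170, 109 and 158 FPKM in cKO hearts. Ctrl replicate 3 was above the cKO range and cKO replicate 2 below the Ctrl range, with a log2 fold change of -0.28 (SE 0.18, limma adjusted p 0.272). Its near-identical neighbour Lyz1 was at 0.475 to 0.976 FPKM in all 6 hearts, and how reads shared by the pair were counted is not given in the sources used here. Cd14, which encodes a co-receptor for bacterial lipopolysaccharide, was at 4.54, 5.32 and 9.55 FPKM in Ctrl and 8.08, 3.79 and 7.06 FPKM in cKO hearts. The groups overlapped over most of their range, and the sign of its log2 fold change of -0.03 (SE 0.31) turned with the scaling and with the heart left out.

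Adgre1 encodes F4/80, the surface protein by which mouse macrophages are usually sorted. It was at 4.20, 3.96 and 6.41 FPKM in Ctrl and 4.29, 5.20 and 5.12 FPKM in cKO hearts. The means were 4.86 ± 1.35 and 4.87 ± 0.505 FPKM, with a log2 fold change of 0.02 (SE 0.16, 95% interval -0.36 to 0.41), with a sign that turned in 4 of 16 alternatives. Cd68, a protein of the lysosome membrane that macrophages make in large amounts, was at 8.26, 5.62 and 6.64 FPKM in Ctrl and 8.79, 9.17 and 7.15 FPKM in cKO hearts. Ctrl replicate 1 lay within the cKO range, with a log2 fold change of 0.26 (SE 0.14, limma adjusted p 0.199, 95% interval -0.08 to 0.60). Of the 5 general markers, 1 was lower (Csf1r) and the other 4 did not pass.

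**Figure D2:**
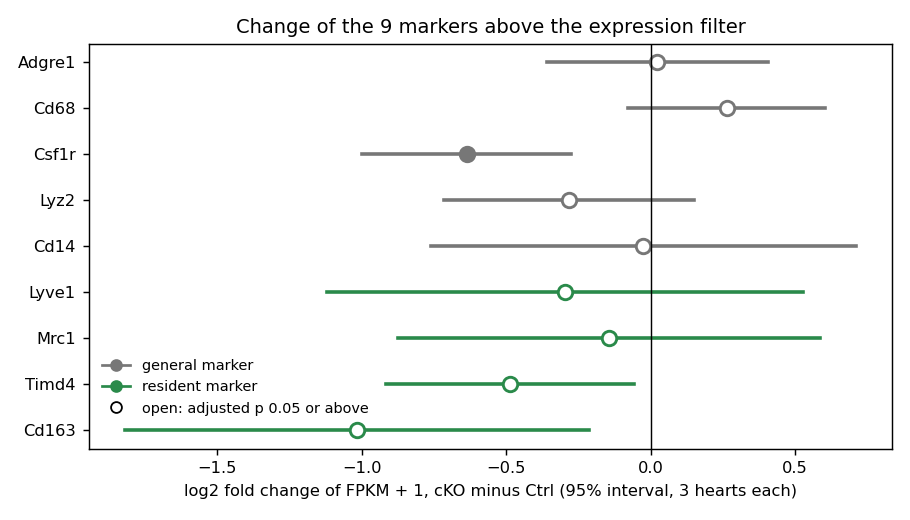
Log2 fold change of FPKM + 1 (cKO minus Ctrl, horizontal axis) with its 95% interval from limma for the 9 markers above 0.5 FPKM, 3 hearts per group. The filled point, Csf1r at -0.64, is the 1 marker past an adjusted p of 0.05, and the unadjusted intervals of Timd4 and Cd163 also lie under 0.

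Among the resident markers, Cd163 (chromosome 6, 124304656 to 124330527, plus strand) encodes the receptor that clears haemoglobin bound to haptoglobin. It was at 7.41, 10.3 and 16.0 FPKM in Ctrl and 5.83, 2.71 and 6.70 FPKM in cKO hearts. The groups did not overlap, but Ctrl hearts differed among themselves by more than the gap between the groups. The means were 11.2 ± 4.37 and 5.08 ± 2.10 FPKM with a log2 fold change of -1.02 (SE 0.34, limma adjusted p 0.0576, 95% interval -1.82 to -0.21). It passed in 4 of 16 alternatives, among them voom (adjusted p 0.0405) and the fit without Ctrl replicate 1 (-1.26, adjusted p 0.0482), and the adjusted p ranged from 0.0369 to 0.154. Without cKO replicate 2 it was -0.69 (adjusted p 0.109). Cd163 took place 5, 4 and 3 in level among the 10 markers in Ctrl replicates 1, 2 and 3, and place 7, 8 and 7 in the cKO hearts. Its relative Cd163l1 was at 0.124 FPKM or less in every heart.

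Timd4 (chromosome 11, 46810800 to 46844332, plus strand) encodes TIM-4, which binds phosphatidylserine on dying cells. It was at 1.30, 0.487 and 1.12 FPKM in Ctrl hearts, from 54, 22 and 59 reads. The cKO hearts had 0.326, 0.256 and 0.585 FPKM, from 12, 13 and 32 reads. Ctrl replicate 2 lay within the cKO range. The exact Poisson 95% interval of 12 reads is 6.20 to 20.96, which covers counting error only. The means were 0.971 ± 0.429 and 0.389 ± 0.173 FPKM. The log2 fold change of -0.49 (SE 0.18, limma adjusted p 0.0799, 95% interval -0.92 to -0.06) understates the change of so low a gene, and voom on its reads gave -1.21 (adjusted p 0.0862). It passed in 2 of 15 alternatives, one of them the fit without Ctrl replicate 2 (-0.68, adjusted p 0.0218), and was lower in cKO hearts in all 15.

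Lyve1 and Mrc1 overlapped between groups. In both, as in Cd163, Ctrl replicate 3 was the highest of the 6 hearts and cKO replicate 2 the lowest. Lyve1 encodes a hyaluronan receptor that is also a marker of lymphatic vessels. It was at 16.9, 14.2 and 25.0 FPKM in Ctrl and 22.5, 8.42 and 16.3 FPKM in cKO hearts, with the lowest value in cKO replicate 2 and the highest in Ctrl replicate 3. The log2 change was -0.30 (SE 0.35, limma adjusted p 0.546, 95% interval -1.12 to 0.53), and 0.07 without cKO replicate 2. Mrc1 encodes CD206, the mannose receptor of macrophages. It was at 6.11, 5.92 and 10.9 FPKM in Ctrl and 8.85, 3.98 and 7.83 FPKM in cKO hearts, again with cKO replicate 2 lowest and Ctrl replicate 3 highest. The log2 change was -0.14 (SE 0.31, limma adjusted p 0.748, 95% interval -0.87 to 0.58), and 0.16 without cKO replicate 2. Changes within these intervals were not detectable with 3 hearts per group. Of a list of 7 entries for lymphatic endothelium 5 were tested and 0 passed (1 at an unadjusted p under 0.05, Pdpn, and 0 by voom). Among all genes tested 33.3% passed. The summed level of all 7 was 18.2 to 21.3 FPKM in Ctrl and 16.5 to 31.0 FPKM in cKO hearts and was highest in cKO replicate 2, the heart in which Lyve1 was lowest. The largest parts of the sum in that heart were Ccl21a and Prox1, and single genes moved both ways. Reln, which lay under the filter, and Mmrn1 were at 50.5% and 72.6% of Ctrl. Their groups did not overlap, nor did those of 51.2% of all genes tested. Flt4 was at 89.2% of Ctrl. Prox1, the tested entry of Ccl21a and Pdpn were at 101%, 139% and 152%. The part of lymphatic vessels in the Lyve1 values was not tested.

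The promoters of 3 resident markers are shown because the levels of these genes differed between hearts as just described, and because factors that control macrophage genes are known. PU.1, encoded by Spi1, opens the enhancers of all macrophages, and MAF drives genes of resident ones. The sequences are the 250 bases before the RefSeq gene start in GRCm38.p6, on the coding strand, with matches to the PU.1 core GAGGAA or the MAF motif TGCTGA on either strand in capitals. Mrc1 lies at chr2:14229164-14229413, Timd4 at chr11:46810549-46810798 and Cd163 at chr6:124304401-124304650, all on the plus strand.
Mrc1: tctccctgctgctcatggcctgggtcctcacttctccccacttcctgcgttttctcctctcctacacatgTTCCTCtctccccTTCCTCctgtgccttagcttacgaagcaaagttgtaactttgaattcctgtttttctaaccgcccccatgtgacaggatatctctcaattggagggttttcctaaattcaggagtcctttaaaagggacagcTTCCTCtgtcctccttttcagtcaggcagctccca
Timd4: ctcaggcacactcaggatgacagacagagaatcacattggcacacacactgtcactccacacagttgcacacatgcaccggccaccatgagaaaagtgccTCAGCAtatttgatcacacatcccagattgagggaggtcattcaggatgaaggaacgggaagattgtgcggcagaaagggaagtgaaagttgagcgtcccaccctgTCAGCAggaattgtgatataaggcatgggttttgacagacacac
Cd163: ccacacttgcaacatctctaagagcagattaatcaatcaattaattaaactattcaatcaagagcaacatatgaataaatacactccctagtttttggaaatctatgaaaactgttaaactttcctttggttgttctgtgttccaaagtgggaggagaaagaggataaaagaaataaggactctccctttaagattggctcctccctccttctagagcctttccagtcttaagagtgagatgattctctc
The Mrc1 window holds the reverse complement of the PU.1 core 3 times, starting at positions -180, -167 and -35 from the gene start. The Timd4 window holds the reverse complement of the MAF motif at positions -150 and -44. The Cd163 window holds neither. Of the 10 markers, 6 had a RefSeq window, and 2 of these 6 held the PU.1 core (Mrc1 and Cd68) and 2 the MAF motif (Timd4 and Lyz2). Of 32851 RefSeq windows of the same length, 23.3% held the PU.1 core and 16.1% the MAF motif. A match is a string of letters and not a site of binding.

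The genes of these factors were measured too. Spi1 was at 2.98, 1.78 and 3.33 FPKM in Ctrl and 3.09, 2.43 and 3.14 FPKM in cKO hearts, and the groups overlapped (log2 fold change 0.09, limma adjusted p 0.713). Maf was at 3.04, 3.07 and 3.57 FPKM in Ctrl and fell to 2.70, 2.23 and 2.25 FPKM in cKO hearts (-0.32, SE 0.09, adjusted p 0.0361). Its groups did not overlap, as for 51.2% of all genes tested, but the call held in 7 of 16 alternatives. It was lost without Ctrl replicates 1, 2 or 3 (adjusted p 0.0664, 0.0752 and 0.109) and without cKO replicates 2 or 3 (adjusted p 0.0808 and 0.101). Spi1 was named after its values were seen.

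Ccr2 (chromosome 9, 124101950 to 124113557, plus strand), the marker of recruited cells, was the lowest of the 10 markers in the 3 Ctrl hearts and in cKO replicate 3. It was at 0.442, 0.292 and 0.397 FPKM in Ctrl hearts, from 57, 41 and 65 reads. The cKO hearts had 0.402, 0.843 and 0.512 FPKM, from 46, 133 and 87 reads. cKO replicate 2 was the highest heart and cKO replicate 1 lay within the Ctrl range. The means were 0.377 ± 0.0774 and 0.585 ± 0.229 FPKM. Ccr2 lay under the filter of 0.5 FPKM and was tested in the fit without a filter, where it differed by 0.20 on the log2 scale (SE 0.12, limma adjusted p 0.373). A voom fit of genes with at least 10 reads in all, added after the data had been seen, gave 0.65 (SE 0.30, unadjusted p 0.0587, adjusted p 0.155). At this depth a rise of Ccr2 was not detectable beyond the spread between hearts.

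The order of levels among the markers, which FPKM allows because it divides by gene length, had 3 steps. Lyz2 had a median of 163 FPKM over the 6 hearts and its range did not meet that of any other marker. Below it came Lyve1 (16.6 FPKM), Csf1r (9.45), Cd68 (7.70), Cd163 (7.06), Mrc1 (6.97), Cd14 (6.19) and Adgre1 (4.70), whose neighbours in this order overlapped in range. Timd4 (0.536 FPKM) and Ccr2 (0.422 FPKM) formed the lowest step and overlapped each other. Lyve1 lay above Csf1r and Mrc1 above Cd14 in 6 of 6 hearts, whereas Cd163 lay above Mrc1 in 3.

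Much of the spread of the markers went with particular hearts. Ctrl replicate 3 was the highest of the 6 hearts for 7 of the 10 markers and the highest Ctrl heart for the same 7 (Adgre1, Csf1r, Lyz2, Cd14, Lyve1, Mrc1 and Cd163). cKO replicate 2 was the lowest of the 6 hearts for 7 (Csf1r, Lyz2, Cd14, Lyve1, Mrc1, Timd4 and Cd163) and the highest for 2, Cd68 and Ccr2. Ctrl replicate 2 was the lowest Ctrl heart for 8 of the 10 markers and the lowest of the 6 hearts for 3 (Adgre1, Cd68 and Ccr2). Over all genes tested, Ctrl replicate 3 was the highest Ctrl heart for 34.5% and cKO replicate 2 the lowest cKO heart for 40.4%. Ctrl replicate 2 was the lowest Ctrl heart for 29.8% of them. The markers share cells and libraries and are not independent of each other. The summed FPKM of the 4 resident markers were 31.7, 30.9 and 53.0 in Ctrl and 37.5, 15.4 and 31.4 in cKO hearts. With cKO replicate 2 set aside, the sums in cKO hearts lay within the Ctrl range. Lyve1 was the largest part of each of these sums. Cd163, at 5.83 and 6.70 FPKM in cKO replicates 1 and 3, still lay under every Ctrl heart, while Lyve1, Mrc1 and Timd4 overlapped with Ctrl. The sums of the 5 general markers are mostly Lyz2. They were 196, 181 and 238 in Ctrl and 198, 133 and 186 in cKO hearts, with cKO replicate 2 again lowest.

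Other macrophage genes were read for the same hearts. Of 13 tested genes of a resident list, 6 were highest in Ctrl replicate 3, 6 in Ctrl replicate 1 and 10 were lowest in cKO replicate 2. Of 17 tested genes of a general list, 7 were highest in Ctrl replicate 3, 5 in cKO replicate 2 and 4 in cKO replicate 1, while 8 were lowest in Ctrl replicate 2 and 4 in cKO replicate 2. Both extremes together, Ctrl replicate 3 highest and cKO replicate 2 lowest, were seen for 6 of the resident and 3 of the general list. Vsig4, a complement receptor of resident macrophages, was at 2.72, 2.01 and 3.76 FPKM in Ctrl and 3.03, 0.404 and 3.00 FPKM in cKO hearts, with cKO replicate 2 far below the other 5. F13a1, which encodes a subunit of clotting factor XIII, was at 12.5, 9.88 and 18.7 FPKM in Ctrl and 16.5, 5.72 and 13.6 FPKM in cKO hearts. The complement genes C1qa, C1qb and C1qc were also highest in Ctrl replicate 3 and lowest in cKO replicate 2. These genes were named for this pattern after their values were seen, and none of the 5 passed the test (limma adjusted p 0.480 to 0.661). Other genes of the lists differed from it, such as Aif1, which was highest in cKO replicate 2 (2.82 FPKM), and Pf4, which was highest in cKO replicate 1 (30.3 FPKM).

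**Figure D3:**
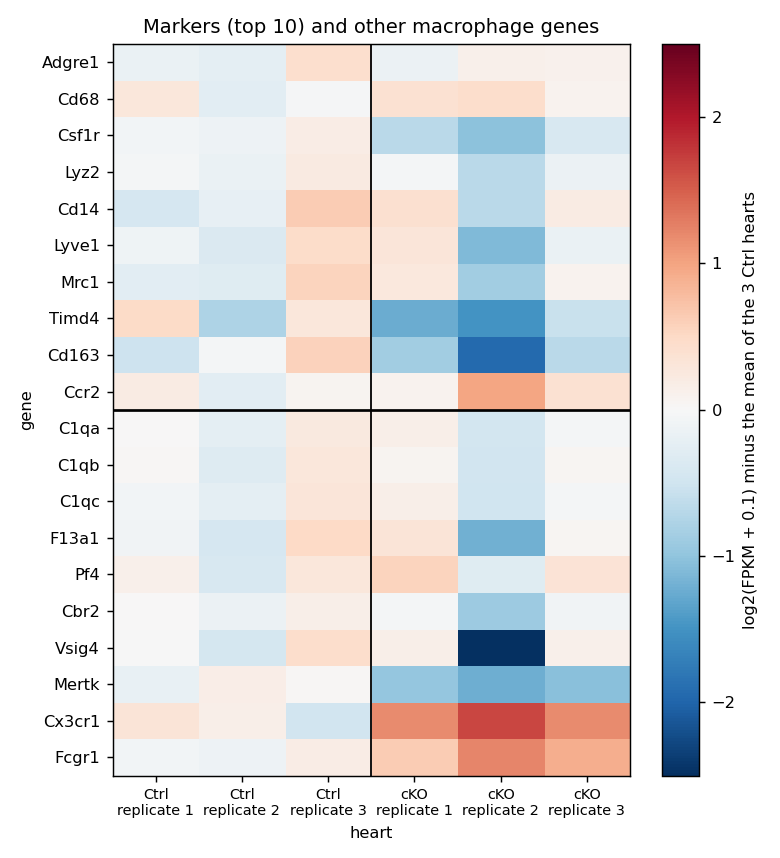
Level of the 10 markers (above the line) and 10 further macrophage genes in each heart, as log2(FPKM + 0.1) minus the mean of the 3 Ctrl hearts (colour scale, red higher, blue lower). Resident markers are lowest in cKO replicate 2 and several are high in Ctrl replicate 3. Csf1r, Cd163, Mertk, Cx3cr1 and Fcgr1 separate all cKO from all Ctrl hearts. The groups also do not overlap for 51.2% of single genes tested.

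Resident and recruited markers were set against each other within each heart, as ratios. Plain ratios do not depend on the scaling between hearts, while the differences and p values below do through the 0.1 FPKM added. Cd163 over Ccr2 was 16.8, 35.3 and 40.3 in Ctrl and 14.5, 3.22 and 13.1 in cKO hearts. Timd4 over Ccr2 was 2.95, 1.67 and 2.82 in Ctrl and 0.812, 0.304 and 1.14 in cKO hearts. In both ratios every cKO heart was below every Ctrl heart. The groups also did not overlap for 51.2% of all single genes tested, Cd163 among them. On the scale of log2(FPKM + 0.1) the differences of means were -1.64 for Cd163 and -1.58 for Timd4, each with an exact two-sided permutation p of 0.1, the smallest that 3 against 3 hearts can give, and 0.3 after adjustment over 9 ratios. No ratio could pass at this number of hearts. Without cKO replicate 2 the differences were -0.995 and -1.12. The ratios of Lyve1 and Mrc1 to Ccr2 overlapped between groups and differed by -0.80 (exact p 0.4) and -0.65 (exact p 0.5), or -0.15 and -0.05 without cKO replicate 2. These 4 ratios share Ccr2, which rests on 41 to 133 reads a heart, and so are not independent.

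Set against Csf1r, a general marker, Ccr2 did not overlap between the groups. Nor did 51.2% of all single genes tested, Csf1r among them. Ccr2 over Csf1r was 0.0406, 0.0281 and 0.0306 in Ctrl and 0.0564, 0.153 and 0.0599 in cKO hearts. Every cKO heart was above every Ctrl heart, with a difference of 1.19 on the log2 scale (exact permutation p 0.1, adjusted 0.3) and 0.77 without cKO replicate 2. Csf1r was itself lower in cKO hearts, and with Adgre1 in its place the difference was 0.45 (exact p 0.3). The 4 resident markers over Csf1r overlapped between groups. They differed by -0.39 for Timd4, 0.39 for Lyve1, 0.54 for Mrc1 and -0.45 for Cd163, with exact p values of 0.4, 0.5, 0.2 and 0.3. With Adgre1 in place of Csf1r the ratios of Timd4 and Cd163 differed by -1.12 and -1.19 (exact p 0.1 each).

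**Figure D4:**
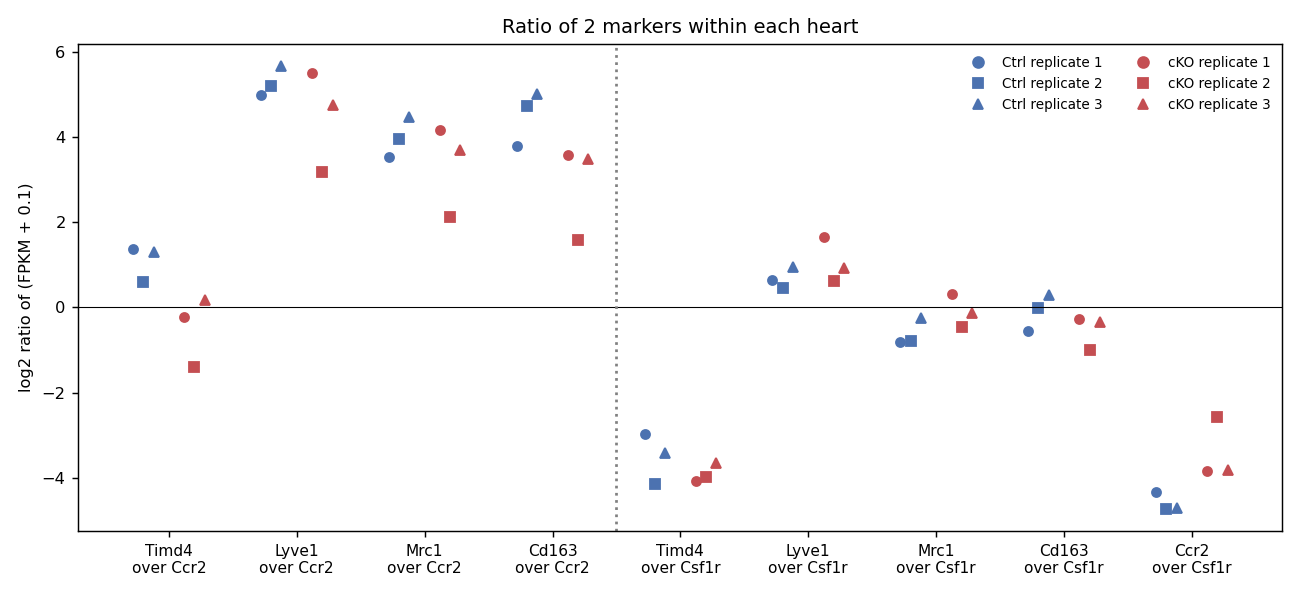
Log2 ratio of FPKM + 0.1 of a pair of markers (vertical axis) in each heart, for resident markers over Ccr2 (left of the dotted line) and for resident markers and Ccr2 over Csf1r (right). Timd4 and Cd163 over Ccr2 are lower, and Ccr2 over Csf1r higher, in every cKO heart than in every Ctrl heart. The groups also do not overlap for 51.2% of single genes tested.

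The ligands of both receptors were measured in the same RNA. CCR2 responds to CCL2, CCL7 and CCL12, and the genes of all 3 were higher in cKO hearts. Ccl2 was at 4.93, 0.760 and 0.981 FPKM in Ctrl and 6.80, 6.96 and 8.03 FPKM in cKO hearts (log2 fold change 1.59, SE 0.43, limma adjusted p 0.0298). Ccl7 was at 5.30, 0.240 and 1.39 FPKM in Ctrl and 7.74, 8.18 and 10.3 FPKM in cKO hearts (1.87, SE 0.53, adjusted p 0.0343). Ccl12 was at 5.18, 1.25 and 1.62 FPKM in Ctrl and 10.1, 9.01 and 8.22 FPKM in cKO hearts (1.61, SE 0.35, adjusted p 0.0147). No pair of groups overlapped, nor did those of 51.2% of all genes tested. Ctrl replicate 1 was well above the other Ctrl hearts for all 3 genes. The call of Ccl12 held in 15 of 16 alternatives and was lost without Ctrl replicate 3 (adjusted p 0.0529). Those of Ccl2 and Ccl7 held in 10 and 9 of 16. The call of Ccl2 was lost without Ctrl replicates 2 or 3 (adjusted p 0.0873 and 0.0935) and without cKO replicates 1, 2 or 3 (adjusted p 0.0696, 0.0594 and 0.0785). That of Ccl7 was lost without the same 5 hearts (adjusted p 0.0626, 0.0955, 0.0741, 0.0658 and 0.0891). Without Ctrl replicate 1 the 3 changes were 2.14, 2.49 and 2.05. The receptor gene Ccr2 itself was not called, as given above.

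Of the ligands of CSF1R, Csf1 was at 10.2, 7.32 and 6.52 FPKM in Ctrl and 11.6, 9.87 and 11.1 FPKM in cKO hearts. Ctrl replicate 1 lay within the cKO range, and the difference did not pass (0.41, SE 0.15, limma adjusted p 0.0772). Il34, the other ligand, was at 2.01, 1.74 and 1.75 FPKM in Ctrl and fell to 1.30, 1.33 and 0.893 FPKM in cKO hearts (-0.39, SE 0.11, adjusted p 0.0300). Its groups did not overlap, as for 51.2% of all genes tested. The call held in 7 of 16 alternatives. It was lost without Ctrl replicates 1, 2 or 3 (adjusted p 0.0938, 0.0688 and 0.0697) or cKO replicate 3 (adjusted p 0.0665). Of the list of 18 genes of CSF1 signalling and chemokines, 14 were tested, 5 were higher (Ccl7, Ccl12, Ccl2, Mif and Csf2ra) and 3 lower (Csf1r, Cxcl12 and Il34), with a median log2 fold change of 0.48. Among all genes tested 16.3% were higher and 17% lower, with a median of -0.02. Between 2 and 6 were higher and 0 to 3 lower across the alternatives, with 2 higher without Ctrl replicates 2 or 3 or cKO replicates 1 or 3, 1 lower without Ctrl replicate 1 and 0 lower without Ctrl replicate 3. Mif encodes a cytokine that many cell types make, Csf2ra a subunit of the receptor for GM-CSF and Cxcl12 a chemokine that retains cells in tissue.

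**Figure D5:**
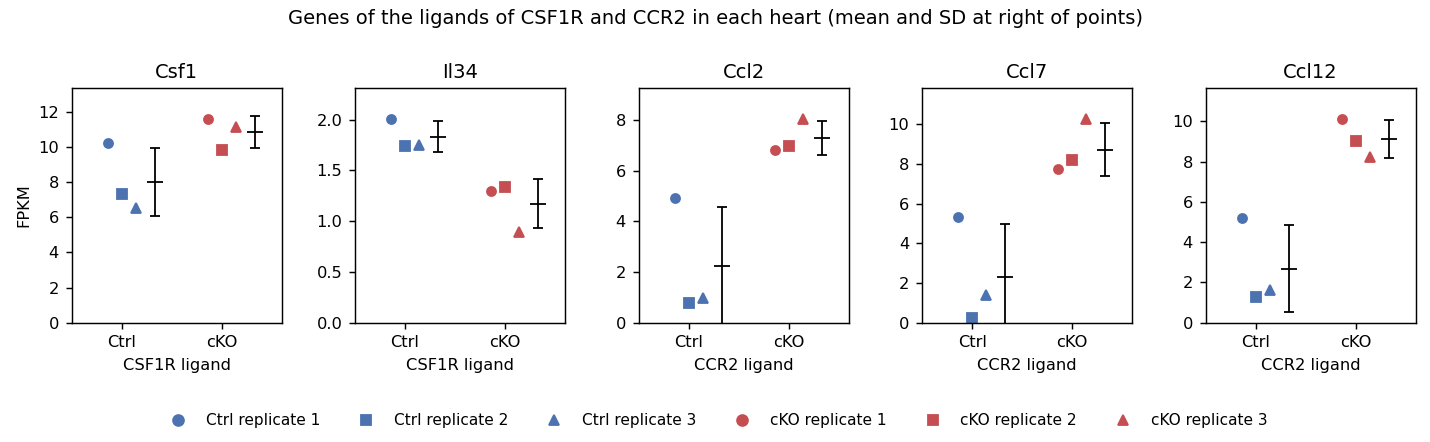
FPKM of the genes of 2 CSF1R ligands and 3 CCR2 ligands in each heart (blue Ctrl, red cKO), with mean and SD of 3 hearts (bars cut off at 0). Ccl2, Ccl7 and Ccl12 are higher in every cKO heart than in every Ctrl heart, and Ctrl replicate 1 is the highest Ctrl heart in each. The groups also do not overlap for 51.2% of single genes tested.

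Genes of macrophages beyond the 10 markers did not move one way. Of 18 further genes of macrophages in general, 17 were tested, 2 were higher and 2 lower, with a median of 0.04, beside 16.3% higher and 17% lower among all genes tested. Mertk encodes a receptor with which macrophages take up dying cells. It was at 2.25, 2.89 and 2.65 FPKM in Ctrl and fell to 1.28, 1.05 and 1.20 FPKM in cKO hearts (-0.72, SE 0.09, limma adjusted p 0.00273). Cx3cr1, the fractalkine receptor of monocytes and of some resident macrophages, was at 0.489, 0.416 and 0.239 FPKM in Ctrl and rose to 0.957, 1.39 and 0.962 FPKM in cKO hearts (0.60, SE 0.12, adjusted p 0.00982). Fcgr1, a high-affinity antibody receptor, was at 0.993, 0.947 and 1.20 FPKM in Ctrl and rose to 1.67, 2.55 and 2.03 FPKM in cKO hearts (0.58, SE 0.12, adjusted p 0.0115). These 3 held in every alternative in which they were tested. Cx3cr1 averaged 0.381 FPKM in Ctrl and 1.10 FPKM in cKO hearts, so it passed the filter of 0.5 FPKM only through the cKO hearts. It was tested in 15 alternatives, among them the fit without a filter. The second lower gene was Cybb, a subunit of the phagocyte oxidase (-0.38, adjusted p 0.0392), whose call held in 9 of 16 and was lost without Ctrl replicates 2 or 3 (adjusted p 0.118 and 0.119) or cKO replicates 1 or 3 (adjusted p 0.106 and 0.0817). Tyrobp, Fcer1g, Laptm5, Ctss and C1qa were among the 13 that did not pass.

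Of 16 further genes linked to resident macrophages, 13 were tested, 0 were higher and 4 lower, with a median of -0.33. The share that passed was close to the 33.3% of all genes tested, of which 17% were lower. Selenop, a secreted selenium carrier that other heart cells also make, was at 103, 99.9 and 95.6 FPKM in Ctrl and fell to 52.3, 44.2 and 63.0 FPKM in cKO hearts (-0.90, SE 0.13, limma adjusted p 0.00333), in all 16 alternatives. Hpgd, which breaks down prostaglandins, was at 5.80, 4.40 and 4.84 FPKM in Ctrl and fell to 2.81, 1.76 and 3.50 FPKM in cKO hearts (-0.73, SE 0.18, adjusted p 0.0238). The call was lost without Ctrl replicates 1 or 3 (adjusted p 0.0750 and 0.0635) or cKO replicate 1 (adjusted p 0.0523). Maf and Gas6 (-0.31, adjusted p 0.0377), a ligand of MERTK that fibroblasts and vessels also make, completed the 4. The call of Gas6 held in 5 of 16 alternatives and, among fits without 1 heart, in that without cKO replicate 3. The count of 4 was 1 without Ctrl replicates 1 or 3, 2 without Ctrl replicate 2 or cKO replicates 1 or 2, 4 without cKO replicate 3 and 2 when scaled to total reads. None was higher in any alternative (voom included), and 0 were higher at an unadjusted p under 0.05.

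Of 18 genes of recruited monocytes and their macrophages, 10 were tested, 4 were higher and 2 lower, with a median of 0.47, beside 16.3% and 17% of all genes tested. Lgals3, which encodes galectin-3, was at 5.39, 2.92 and 2.36 FPKM in Ctrl and rose to 77.6, 27.0 and 38.0 FPKM in cKO hearts (log2 fold change 3.33, SE 0.40, limma adjusted p 0.00212). Spp1, which encodes osteopontin, was at 0.637, 0.496 and 0.452 FPKM in Ctrl and rose to 6.02, 3.51 and 1.66 FPKM in cKO hearts (1.52, SE 0.32, adjusted p 0.0118). Hmox1, the haem oxygenase, was at 9.14, 5.79 and 8.66 FPKM in Ctrl and rose to 32.1, 18.3 and 21.5 FPKM in cKO hearts (1.48, SE 0.23, adjusted p 0.00452). The fourth was Gpnmb (0.88, adjusted p 0.0129), a lysosomal glycoprotein. All 4 held in 16 of 16 alternatives. Stressed cardiomyocytes and other cells can also express these genes, and which cells did so was not measured. Ly6c2, a gene of monocytes, and Itgax and Il1b of the same list were under 1 FPKM in every heart and below the filter. Plac8, also of this list, was tested and did not pass (0.46, limma adjusted p 0.237), with its highest value in cKO replicate 2 (1.75 FPKM). The 2 lower genes were Fabp5 (-0.50, adjusted p 0.0169) and Cd9 (-0.33, adjusted p 0.0292). Of these 2, 0 passed without Ctrl replicates 1 or 3 or cKO replicate 1, and 1 without cKO replicate 2.

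Of 6 tested genes of MHC class II, by which macrophages and dendritic cells show antigen, 0 passed (0 at an unadjusted p under 0.05, and 0 by voom), with 1 higher without cKO replicate 1. H2-Aa was at 15.1, 16.4 and 12.9 FPKM in Ctrl and 9.52, 19.2 and 13.3 FPKM in cKO hearts, highest in cKO replicate 2. In a list of scavenging and lysosome genes 12 of 13 were tested, 4 were higher (Mfge8, Ctsl, Grn and Ctsd) and 1 was lower (Cd36), beside 16.3% and 17% of all genes tested. The higher count was 1 without Ctrl replicate 2, and 2 without any one of the other hearts but cKO replicate 2. Mfge8, a bridge between dying cells and phagocytes, rose from 28.5 ± 1.01 to 57.3 ± 5.46 FPKM (0.98, SE 0.09, limma adjusted p 0.00101). Ctsl, a lysosomal protease, rose from 36.2 ± 4.49 to 68.2 ± 18.4 FPKM (0.87, adjusted p 0.0157), a call lost without Ctrl replicate 2 (0.0551). Cd36, a fatty acid and debris receptor that cardiomyocytes and vessels express, fell from 531 ± 16.7 to 352 ± 47.6 FPKM (-0.60, adjusted p 0.00850).

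The profile of Csf1r over the 6 hearts was closest to those of Tnxb, AU021092 and Hpcal1. The measure was the root mean square difference of log2(FPKM + 1) after centring each gene on its own mean, which was 0.0428, 0.0526 and 0.0556 on the log2 scale among protein-coding genes tested. Tnxb, an extracellular matrix protein, was at 14.4, 13.6 and 17.5 FPKM in Ctrl and 8.87, 6.99 and 11.2 FPKM in cKO hearts, in the same order of hearts as Csf1r.

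Markers of other cells were read beside these values, and the share of all genes tested that passed was 33.3%. For neutrophils, which also make lysozyme, S100a9 was at 3.52, 2.21 and 21.4 FPKM in Ctrl and 14.9, 2.05 and 4.19 FPKM in cKO hearts, so that Ctrl replicate 3 and cKO replicate 1 were the highest. The summed level of 8 neutrophil genes was 4.02 to 41.6 FPKM in Ctrl and 3.47 to 26.3 FPKM in cKO hearts, lowest in cKO replicate 2, and 0 of the 3 tested passed (0 at an unadjusted p under 0.05, and 0 by voom). Ly6g and Mpo, which define neutrophils, were at 0.188 FPKM or less. The defining B cell gene Ms4a1 was listed at 0 in all 6 hearts, and 0 of 6 B cell genes reached the filter. Of 10 genes of T and NK cells 1 was tested, Cd28, which was lower (-0.73, limma adjusted p 0.00329), while Cd3e was at 0.101 FPKM or less. Cd28 averaged 1.20 FPKM in Ctrl and 0.329 FPKM in cKO hearts, so it passed the filter only through the Ctrl hearts. Below the filter, Nkg7, Trbc2 and Cd8a were at 957%, 454% and 313% of Ctrl, each highest in cKO replicate 2. Cd4 and Cd3e, also below it, were at 96.0% and 99.6%. The sum of the 10 was 1.81 to 2.01 FPKM in Ctrl and 1.01 to 5.74 FPKM in cKO hearts, highest in cKO replicate 2. Of 3 tested mast cell genes 1 was lower, Tpsb2 (-0.50, adjusted p 0.0349), a call kept without cKO replicate 3 and lost without any other heart. Of 2 tested dendritic cell genes 0 passed (1 at an unadjusted p under 0.05, Clec9a, and 0 by voom). The part of these cells in the macrophage values was not tested.

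Genes of the other cells of the heart were read in the same way. Among all genes tested 16.3% were higher and 17% lower. Of 8 genes of blood endothelium, 5 were lower, with a median of -0.61 and summed levels of 141 to 166 FPKM in Ctrl and 93.3 to 113 FPKM in cKO hearts. Pecam1, Tie1 and Tek were lower by 0.63, 0.73 and 0.66 on the log2 scale (limma adjusted p 0.00449, 0.00181 and 0.00287). Csf1r, at -0.64, lay within the range of these genes and of the cardiomyocyte list, of which 7 of 10 were lower with a median of -0.62. Of 10 fibroblast genes 3 were higher (Col3a1, Postn and Col1a1) and 1 lower (Dcn), and of 6 mural cell genes 2 were higher (Acta2 and Cspg4) and 2 lower (Rgs5 and Kcnj8). The call of Col1a1 was lost without Ctrl replicate 1 (limma adjusted p 0.0580), Ctrl replicate 2 (0.0685) or cKO replicate 1 (0.0617). That of Dcn was lost without Ctrl replicate 3, and that of Acta2 without Ctrl replicates 2 or 3 or cKO replicates 1 or 2. Each of the 4 atrial and 5 erythroid genes missed the threshold (0 called, 0 by voom, and 0 at an unadjusted p under 0.05), but 1 atrial gene was higher without Ctrl replicate 1 and 2 erythroid genes were lower without cKO replicate 3. Cell makeup was not measured, and its part in the level of Csf1r was not tested.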

How the data were processed

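RNA of 3 Ctrl and 3 cKO hearts was analysed, with group and replicate taken from the sample titles. Per the submitters' processing notes, reads were aligned with HISAT2 2.0.5 and counted with featureCounts 1.5.0-p3, and counts were tested with DESeq2 1.16.1, while the methods name another version of DESeq2. The strand setting is not given in the sources used here. The authors deposited FPKM values of 54532 genes, 1 column per heart, together with the gene length, an other gene-level value used only to recover reads. The deposited FPKM values gave whole reads for 100% of values within 0.01 read, so the depth of each library is known. The notes list mm9, but 53499 of 54409 shared gene identifiers had start and end as in GENCODE M21, so coordinates are those of GRCm38.

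Values were analysed as log2(FPKM + 1) for the 12944 genes that averaged 0.5 FPKM or more, with limma 3.58.1 in R 4.3.3 (intensity trend, no covariates, two-sided, Benjamini-Hochberg over all genes tested, threshold 0.05), after the authors' 2-group design. The fit was tested on simulated data. Ratios of markers used log2(FPKM + 0.1) and an exact permutation test over hearts, which cannot go below 0.1 with 3 against 3. Markers and gene lists were chosen with earlier results of these data known, so lists are given as counts beside all genes. Named genes are the 10 markers, up to 3 genes per list with the largest change past the threshold, the ligands of CSF1R and CCR2, Mrps5, and the 3 genes closest to a called marker; list genes outside this rule were named after their values were seen. Alternatives covered the pseudocount, filter, scaling, voom on recovered reads, variance trend, replicate block and leaving out each heart. Promoter windows came from RefSeq (GRCm38.p6). SDs rest on the 3 hearts of a group, while the SEs of limma use both groups and a variance partly shared across all genes tested. A p sets a difference against the spread between these libraries.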

Additional observations from a re-analysis of the deposited data

How the results depend on the processing

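Each group had 3 hearts, so 1 heart could set a call, and Timd4 and Ccr2 rested on 12 to 133 reads per heart. Adjusted p of the markers and their log2 fold changes were recomputed under 16 alternatives (15 for Timd4, 2 for Ccr2), of which a voom fit of genes with at least 10 reads in all was chosen after seeing the data. Lyz2, Csf1r, Timd4 and Cd163 stayed lower and Cd68 stayed higher in cKO hearts in all of them. The count of lower markers was 0 with no filter, 2 by voom with either filter, and 0 to 2 when 1 heart was left out, and none was higher. For all genes, scaling to total reads gave 3273 higher and 1381 lower, and leaving out 1 heart gave 1396 to 1977 higher and 1423 to 2011 lower. Cd14 turned to 0.055 with scaling without mitochondrial DNA genes and 0.103 with total reads. When 1 heart was left out, Cd14 ranged from -0.21 to 0.254 and was higher without Ctrl replicate 3 or cKO replicate 2. Adgre1 ranged from -0.084 (without Ctrl replicate 2) to 0.205 and was also lower without Ctrl replicate 1, cKO replicate 2 or cKO replicate 3. Mrc1 ranged from -0.33 to 0.157, higher without Ctrl replicate 3 or cKO replicate 2, and Lyve1 from -0.59 to 0.0703, higher without cKO replicate 2. The ratio of Timd4 to Csf1r turned to 0.15 with a pseudocount of 1 FPKM, and those of Lyve1 and Mrc1 to -0.35 and -0.20 with Adgre1 in place of Csf1r. The causes were not tested.

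The titles number the replicates 1 to 3 in each group and do not say whether equal numbers pair the hearts. The distances of hearts with 1 number from the mean of their own group correlated at -0.06, 0.17 and -0.01. These values cannot decide on pairing, since hearts with different numbers were not compared in the same way. The SE of every tested marker was smaller with the replicate number as a block, for Csf1r 0.089 against 0.153. With the replicate number as a block, 3 markers were lower (Csf1r, Timd4 with adjusted p 0.0487 and Cd163 with 0.0369), and 1874 genes were higher and 1982 lower.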
